A study of Mus musculus with 4 samples.

Results

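The genes described here are 41 members of the Myc transcription factor network and of ribosome biogenesis, measured in mouse double-positive thymocytes after dexamethasone. They were listed by name, and every probe set whose platform annotation names 1 gene, that gene being on the list, was taken. This gave 52 of the 12488 probe sets on the array, for 38 of the 41 genes. Nob1 and Eif2s1 had no probe set, and the probe set of Mrto4 also names its pseudogenes. Of the 38 genes, 34 passed a filter on dim signals and were tested among 5582 genes, while Myc, Mycn, Eif4e and Eif5a did not pass it.

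Double-positive thymocytes are immature T cells with CD4 and CD8 together on their surface. The donors were 4 week old C3H/HeN females, and microbeads were used to sort the cells. Cultures of 3 ml held 5.0E+06 cells per ml and received, for 3 h, either 1e-07 M dexamethasone, a synthetic glucocorticoid, or 0.1% PBS in medium. Each group had 2 arrays, which the series design calls technical replicate extracts, so the p-values measure only the spread between extracts.

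Myc pairs with Max, and the pair binds the E-box sequence CACGTG and activates genes for growth. Mxi1 and the Mxd proteins also pair with Max and repress such genes. Many Myc targets act in the nucleolus, where RNA polymerase I makes the ribosomal RNA precursor, small nucleolar ribonucleoproteins (snoRNPs) modify it and assembly factors build the 2 ribosomal subunits. In lymphoid cell lines glucocorticoids are known to lower Myc, and in the thymus Myc serves the dividing precursors that give rise to double-positive cells.

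Values are Affymetrix MAS5 signals on a linear scale. Differences are dexamethasone minus medium on the log2(signal + 1) scale, with the limma standard error (SE), and a gene rose, fell or changed where its Benjamini-Hochberg adjusted p over all 5582 genes was at or under 0.05. A signal at or under 14, the highest value of 19 probe sets for bacterial and yeast transcripts, counts as background. All 9 measured markers of double-positive cells were above background in both groups. Their summed signal was 11776 to 12743 with dexamethasone and 11976 to 12385 in medium. Cd8b1 and Ptcra fell, with log2 differences of -0.33 and -0.84. Without passing, Rag1 and Rag2 were higher on both dexamethasone arrays and Cd3e was lower on both. Rag1 had 2929 and 2347 with dexamethasone and 2131 and 2098 in medium, and Rag2 had 303 and 330 against 285 and 282. Of 7 measured B cell markers, 1 was at background on all arrays and Ighm rose by 0.46, which was 0.01 with scaling to the hybridization controls. The summed B cell signal was 1920.0 to 1936 with dexamethasone and 1416 to 1442 in medium, most of it from Ighm. Without Ighm the sum was 171 to 185 with dexamethasone and 159 to 160 in medium. Cd79b, Ms4a1 and Pax5 were higher on both dexamethasone arrays, as were 24.7% of all genes tested, while Cd79a and Blnk overlapped between groups. The part of these signals in the results below was not tested. Macrophage and dendritic cell markers summed to 83.7 to 103 with dexamethasone and 99.6 to 110.2 in medium, with 4 of 8 at background. Erythroid markers summed to 113 to 145 with dexamethasone and 103 to 117 in medium, with 2 of 4 at background. Stromal markers summed to 227 to 252 with dexamethasone and 187 to 218 in medium, with 6 of 9 at background. None of these marker sums included a gene listed at 0 on all arrays. The ratio of 3′ to 5′ actin signal, a measure of RNA integrity, was 1.24 to 1.40 with dexamethasone and 1.06 to 1.15 in medium, and its part in the results was not tested. The same ratio for Gapdh was 0.823 to 0.904 with dexamethasone and 0.838 to 0.845 in medium, so that the groups overlapped. The 9 hybridization controls were 1.37-fold higher on the dexamethasone arrays. Scaling to them shifts every gene alike, so that the median of all genes moves to -0.45, against 0.00 at the deposited scaling. Directions are given for the scaling as deposited.

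Dexamethasone left most of the network within the spread between extracts and changed 4 of the 34 tested genes. The nucleolar scaffold genes Ncl and Tcof1 and the assembly factor gene Rsl1d1 rose 1.29-fold to 1.36-fold, while Nhp2, a core protein of the snoRNPs that guide pseudouridylation, fell 1.62-fold. Scaled to the hybridization controls, the 3 rises became -0.082, -0.064 and -0.012. That scaling lowers the difference of every gene, so Nhp2 could only be lower still. The 3 rises are 8.82% of the tested members, beside 1.88% of all genes tested, and the single fall is 2.94%, beside 2.02%. In all, 11.8% of the tested members changed, beside 3.91% of all genes. Groups did not overlap for 13 of the 34, or 38.2%, beside 50.5% of all genes. Of the 34, 6 were higher with dexamethasone in this way (17.6%, beside 24.7% of all genes) and 7 lower (20.6%, beside 25.7%). The median difference was 0.03 over the tested members and 0.00 over all genes, and 20 of the 34 were higher with dexamethasone. The median absolute difference was 0.17 for the members and 0.16 for all genes.

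**Figure D1:**
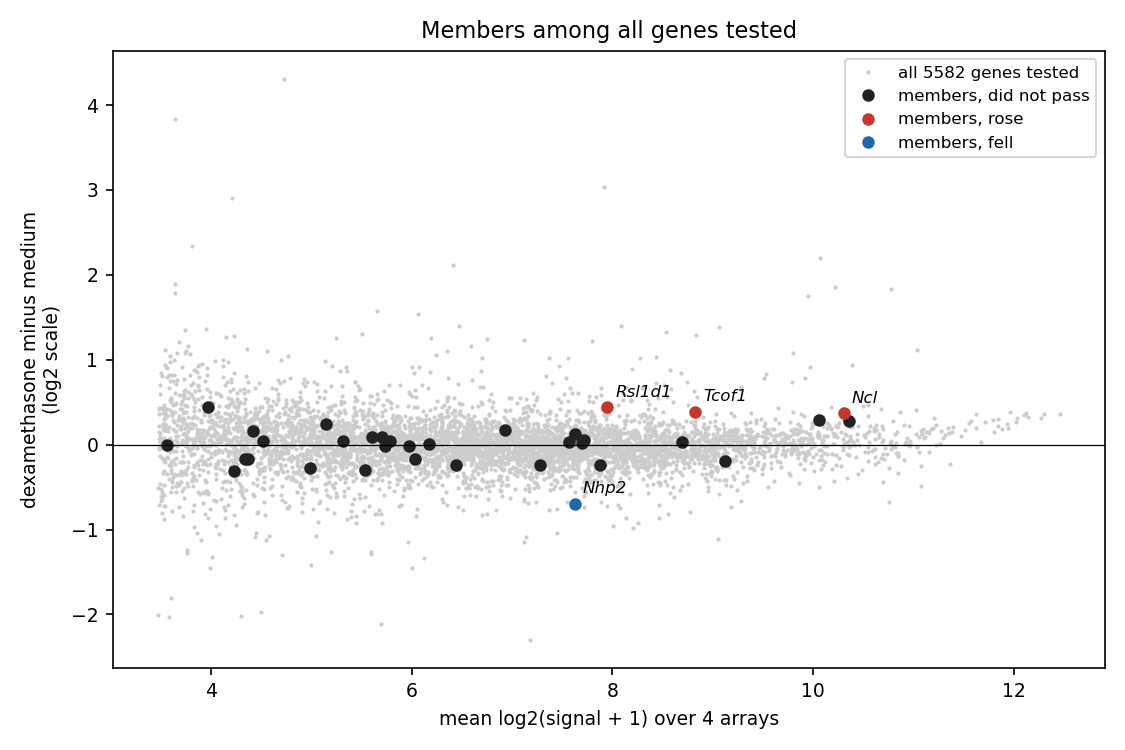
Difference between dexamethasone and medium (vertical axis, log2 scale) against mean log2(signal + 1) over the 4 arrays for 5582 genes (grey) and the 34 tested members (large points). Ncl, Tcof1 and Rsl1d1 lie above 0 at 0.37 to 0.44, but between -0.082 and -0.012 with scaling to the hybridization controls, and Nhp2 lies below at -0.69.

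Of the transcription factors, Myc and Mycn were not measurable above background. The Myc probe set gave 4.90 and 0.700 with dexamethasone, against 5.90 and 4.80 in medium. The brighter Mycn probe set gave 14.6 and 5.40 with dexamethasone and 7.20 and 4.50 in medium, so that 1 of 4 arrays exceeded background. The other reached at most 4.80. No fold is given for either gene, and a difference in their RNA was not detectable at these signals.

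Max, the shared partner, was well above background and level between groups, with 206 and 211 with dexamethasone and 201 and 209 in medium. Its difference was 0.02 ± 0.08 (SE) and the groups overlapped. Mxd4, a repressor that competes for Max, had signals of 1477 and 1408 with dexamethasone, against 1190.0 and 1189 in medium. Both dexamethasone arrays were higher, with a difference of 0.28 ± 0.06, but it did not pass (limma adjusted p = 0.0634) and was -0.18 with scaling to the hybridization controls. Mxi1, a related repressor, had 230.4 and 202 with dexamethasone and 254 and 256 in medium, both arrays being lower, and did not pass (-0.24 ± 0.09, limma adjusted p = 0.212). Of the 3 tested transcription factor genes, 0 passed in limma and 2 had an unadjusted p under 0.05, beside 19.9% of all genes.

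Subunits of RNA polymerase I gave 0 changes among 3 tested genes in limma, and 0 at an unadjusted p under 0.05. Polr1c, a subunit shared with RNA polymerase III, had 190.2 and 190.0 with dexamethasone and 186 and 187 in medium (0.03 ± 0.08), and its second probe set differed by 0.11 ± 0.22. The largest subunit gene, Polr1a, was dimmer, at 28.9 and 26.8 with dexamethasone and 33.9 on both medium arrays. Both dexamethasone arrays were lower, at -0.28 ± 0.17, without passing. Polr1b, the second largest subunit, overlapped between groups at 0.04 ± 0.17, on a probe set designed against a sequence family.

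The snoRNP proteins and nucleolar scaffolds held 3 of the 4 changes, with 2 rises and 1 fall among 9 tested (33.3%, beside 3.91% of all genes tested). Ncl encodes nucleolin, an abundant nucleolar protein that binds the ribosomal RNA precursor. Its signal was 1458 and 1418 with dexamethasone, against 1104 and 1117 in medium. The means were 1438 ± 28.2 with dexamethasone and 1110 ± 9.76 in medium (SD, n = 2 each), and the difference was 0.37 ± 0.06 at the deposited scaling (limma adjusted p = 0.0270). Tcof1 encodes treacle, which links polymerase I transcription to modification of the precursor. It had 518 and 519.9 with dexamethasone and 403 and 389 in medium, a difference of 0.39 ± 0.07 (limma adjusted p = 0.0300). In both genes the groups were separated by more than their spread. With any array left out the differences were 0.35 to 0.42. For both genes the call was lost without a filter on dim genes (limma adjusted p = 0.0616 for Ncl and 0.0525 for Tcof1). It was also lost for both in the fit without a variance trend, and for Tcof1 after centring on array medians (limma adjusted p = 0.0590).

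Nhp2 fell most among the members. Its protein belongs to the H/ACA snoRNPs, which guide pseudouridylation of ribosomal RNA, and to telomerase. The signal was 153 and 155 with dexamethasone, against 247 and 253 in medium. The means were 154 ± 1.70 with dexamethasone and 249.8 ± 4.17 in medium (SD, n = 2 each), a difference of -0.69 ± 0.08 (limma adjusted p = 0.00811). It ranked 51 of 5582 genes by p. Nhp2 had a single probe set, so no second measurement bears on it. With any array left out the difference was -0.71 to -0.68. The call was lost without the variance trend (limma adjusted p = 0.0799).

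The other scaffolds and snoRNP genes did not pass. Npm1, which encodes the nucleolar scaffold nucleophosmin, had 1180.1 and 1179 with dexamethasone and 995 and 934 in medium. Both dexamethasone arrays were higher, at 0.29 ± 0.06 (limma adjusted p = 0.0633), but the difference was -0.16 with scaling to the hybridization controls. The box C/D snoRNP genes Fbl, Nop56 and Nop58, whose proteins carry out 2′-O-methylation, overlapped between groups. Fbl, the methyltransferase fibrillarin, had 409.6 and 428 with dexamethasone and 404 and 413 in medium (0.03 ± 0.07). Its partner Nop56 differed by 0.13 ± 0.13, and its partner Nop58 by 0.24 ± 0.20 on a family-wide probe set. Rrp9, a protein of the U3 snoRNP, had 158 and 127 with dexamethasone and 173 and 163 in medium, lower on both arrays without passing (-0.24 ± 0.12). Nolc1, a snoRNP chaperone, had 19.4 and 5.80 with dexamethasone, on either side of its 10.3 and 11.4 in medium, and was near background.

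Ncl, Npm1 and Mxd4 are the 3 members with a mean log2 signal over 10. Genes this bright were higher as a whole at the deposited scaling. The 222 such genes had a median difference of 0.09, and 65.3% of them were higher with dexamethasone, beside 50.1% of all genes. After quantile normalization, which gives all arrays the same distribution of signals, the differences were 0.30 for Ncl, 0.23 for Npm1 and 0.20 for Mxd4.

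**Figure D2:**
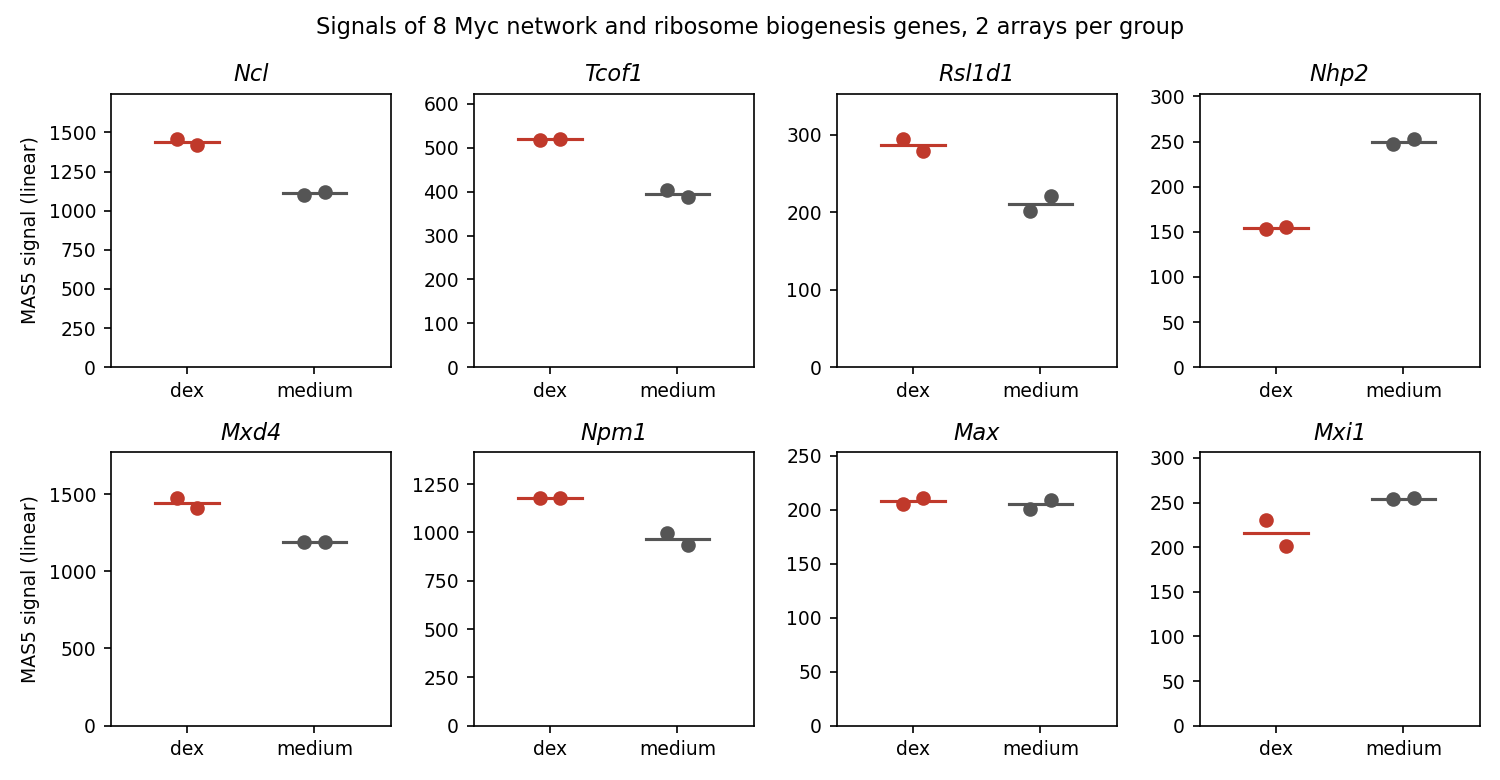
MAS5 signal on each array (points) and group mean (lines) for 8 members, dexamethasone left and medium right, each panel on its own linear axis from 0. The 8 were picked for display. At the deposited scaling the groups overlap for Max and are apart for the others, Nhp2 and Mxi1 being lower with dexamethasone. Over all 34 tested members the groups were apart for 13 (38.2%), beside 50.5% of all genes. Ncl, Tcof1, Rsl1d1, Mxd4 and Npm1 turn to between -0.18 and -0.012 with scaling to the hybridization controls.

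Among factors that assemble the ribosomal subunits, 1 of 11 tested genes changed, or 9.09%, beside 3.91% of all genes tested. Rsl1d1, a nucleolar protein with a ribosomal L1 domain, had 294 and 279 with dexamethasone, against 201 and 221 in medium. The difference on this probe set was 0.44 ± 0.08 at the deposited scaling (limma adjusted p = 0.0443). A second, dimmer Rsl1d1 probe set had 27.5 and 23.6 with dexamethasone and 28.3 and 19.5 in medium, with overlapping groups and a difference of 0.11 ± 0.26. The mean of both probe sets differed by 0.28 (limma adjusted p = 0.298). The call was also lost after centring on array medians (0.0804), without a filter (0.0738) and without the variance trend (0.167). Testing probe sets in place of genes lost it too (0.0518). Leaving out any array gave differences of 0.38 to 0.51.

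The complex of Pes1, Bop1 and Wdr12, which processes the precursor of the large subunit, did not pass for any of its genes. Pes1 had 69.1 and 73.9 with dexamethasone, inside its 75.5 and 67.1 in medium, a difference of 0.01 ± 0.12. Bop1 differed by -0.17 ± 0.15 and Wdr12 by -0.17 ± 0.24. Rrs1, which brings the 5S ribonucleoprotein into the large subunit, had 40.6 and 41.2 with dexamethasone and 46.6 and 54.4 in medium, lower on both arrays without passing (-0.29 ± 0.15). The helicase gene Ddx21 (0.04 ± 0.14), the rRNA methyltransferase gene Nop2 (0.09 ± 0.25), Gnl3, which encodes nucleostemin (0.16 ± 0.25), and Rrp1b (0.04 ± 0.22) overlapped between groups. So did the large-subunit factor Ppan (-0.17 ± 0.32) and Pa2g4, which encodes the growth regulator Ebp1 (-0.02 ± 0.17).

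Translation initiation was poorly covered. Eif4a1, the helicase of the cap-binding complex, had 152 and 109 with dexamethasone, the higher above and the lower inside its 108 to 119.9 in medium (0.17 ± 0.17). Eif4e, which binds the mRNA cap, reached at most 10.1 on 2 probe sets, and Eif5a at most 14.0, so neither was measurable. In limma 0 of 1 tested gene passed, and 0 had an unadjusted p under 0.05.

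Of 7 metabolic and other targets, 0 passed in limma and 1, Nme2, had an unadjusted p under 0.05 (14.3%, beside 19.9% of all genes). Odc1, the first enzyme of polyamine synthesis and a classical Myc target, had 46.1 and 58.7 with dexamethasone, on either side of its 52.7 and 52.6 in medium (-0.02 ± 0.16). Srm, the spermidine synthase, was near background and differed by 0.45 ± 0.32 on a family-wide probe set. Cad, which starts pyrimidine synthesis, had 51.8 and 46.8 with dexamethasone and 51.5 and 41.1 in medium (0.10 ± 0.17).

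Nme2, a nucleoside diphosphate kinase, had 522 and 514 with dexamethasone and 588 and 600.0 in medium. Both dexamethasone arrays were lower, without passing (-0.20 ± 0.06, limma adjusted p = 0.154). The related gene Nme1 was at 17.2 and 14.7 with dexamethasone and 27.3 and 14.5 in medium on its brighter probe set (-0.31 ± 0.34). Its other probe set had 14.8 and 12.1 with dexamethasone and 14.4 and 10.8 in medium (0.09 ± 0.32). Both probe sets may share signal with Nme2. Apex1, a DNA repair endonuclease, had 81.6 and 76.0 with dexamethasone and 95.5 and 91.1 in medium, lower on both arrays without passing (-0.24 ± 0.11). Tfrc, the transferrin receptor for iron uptake, had 189.5 and 241 with dexamethasone, around its 219.6 and 193 in medium (0.06 ± 0.13). The other 4 Tfrc probe sets, 3 of them array controls, reached at most 19.4.

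**Figure D3:**
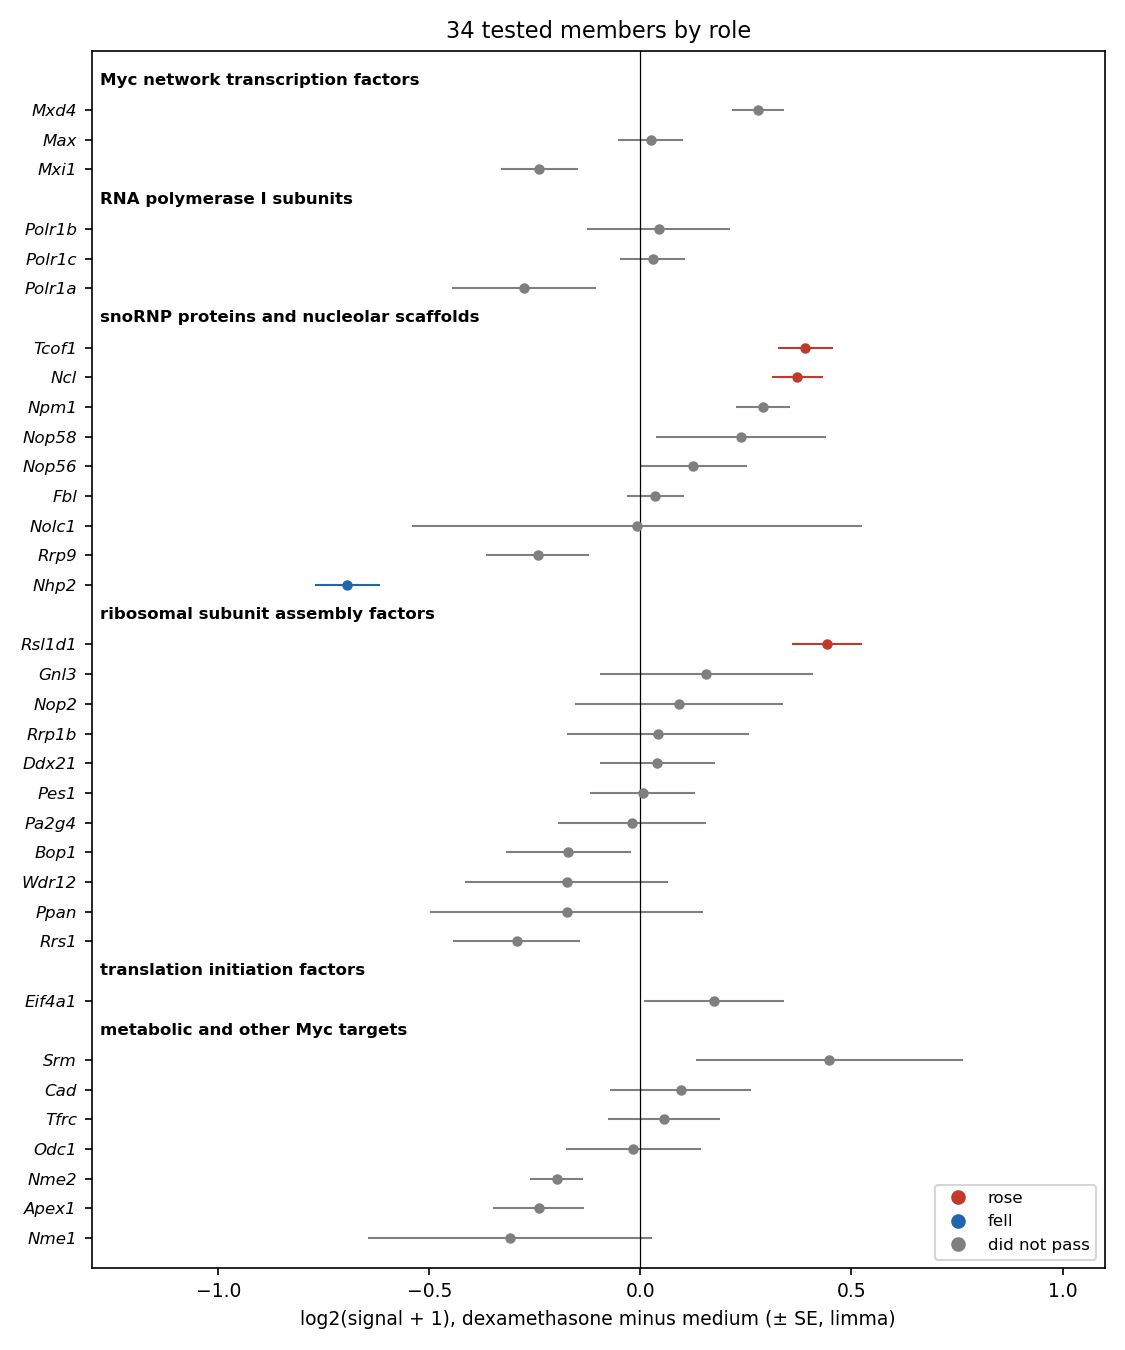
Difference between dexamethasone and medium on the log2(signal + 1) scale (points) with the limma SE (bars) for the 34 tested members, grouped by role. The rises of Tcof1, Ncl and Rsl1d1 (0.37 to 0.44, but -0.082 to -0.012 when scaled to the hybridization controls) and the fall of Nhp2 (-0.69) stand against 30 genes that did not pass.

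Promoter windows of the members were searched for the Myc-Max E-box, CACGTG, which reads the same on both strands. RefSeq windows of 300 bases, from 250 before to 50 after each start site (build GRCm38.p6), were at hand for 34 of the 41 members. The motif occurred in 9 of these 34 genes, or 26.5%, beside 12.7% of the tested array genes with an entry and 8.09% of all 27025 genes with one. Genes with several start sites have several windows, and the motif was in 12 of 48 member windows and in 7.15% of all 32851. Of 28 tested members with an entry, 7 held the motif: Mxd4, Max, Nop2, Pes1, Eif4a1, Nme1 and Apex1. Their differences ran from -0.31 to 0.28 with a median of 0.02. In limma 0 of the 7 changed, and 1, Mxd4, had an unadjusted p under 0.05. The 21 tested members without it ran from -0.69 to 0.44 with a median of 0.03; 3 of them changed and 5 had an unadjusted p under 0.05. Over all genes tested, 3.91% changed and 19.9% had an unadjusted p under 0.05, and the members with and without the motif were not compared.

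The 3 changed members with an entry are shown from 150 bases before to 30 after the start site, because none of their windows holds the motif, and Apex1 and Max are shown for contrast, with CACGTG in capitals. The stretches, 5′ to 3′ on the gene's strand, are chr1:86359426-86359605 (minus) for Ncl, chr16:11203263-11203442 (minus) for Rsl1d1, chr11:51619623-51619802 (plus) for Nhp2, chr14:50924799-50924978 (plus) for Apex1 and chr12:76962219-76962398 (minus) for Max.
Ncl: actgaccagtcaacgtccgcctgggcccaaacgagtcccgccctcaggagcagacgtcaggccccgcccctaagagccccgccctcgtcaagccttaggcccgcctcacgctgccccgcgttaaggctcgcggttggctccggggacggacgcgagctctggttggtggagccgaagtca
Rsl1d1: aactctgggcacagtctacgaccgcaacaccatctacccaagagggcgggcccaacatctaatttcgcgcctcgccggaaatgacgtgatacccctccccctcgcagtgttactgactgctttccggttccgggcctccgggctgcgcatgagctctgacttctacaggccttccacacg
Nhp2: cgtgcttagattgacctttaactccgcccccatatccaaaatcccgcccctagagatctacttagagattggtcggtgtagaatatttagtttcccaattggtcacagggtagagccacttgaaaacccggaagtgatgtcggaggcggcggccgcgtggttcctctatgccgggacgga
Apex1: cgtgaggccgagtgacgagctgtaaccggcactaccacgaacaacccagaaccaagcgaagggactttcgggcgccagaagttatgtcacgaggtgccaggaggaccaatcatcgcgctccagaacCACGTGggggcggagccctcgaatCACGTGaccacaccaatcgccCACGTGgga
Max: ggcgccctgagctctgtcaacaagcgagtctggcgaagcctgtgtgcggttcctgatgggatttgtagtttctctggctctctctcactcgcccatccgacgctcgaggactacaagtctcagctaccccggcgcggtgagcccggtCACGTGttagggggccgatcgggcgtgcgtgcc
Apex1 held 3 copies, starting at -24, 1 and 22 from the start site, and Max held 1 at -3. Both genes stood well above background, and neither passed.

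Other genes of the same processes, 247 in all, were listed by function, and 152 of them were tested. Of these, 4 rose and 3 fell, or 4.61% in all, beside 3.91% of all genes. Their median difference was 0.00. Las1l, which takes part in cutting the spacer between the large-subunit rRNAs, rose most. It had 229.8 and 238 with dexamethasone, against 115 and 114 in medium, a difference of 1.02 ± 0.08 (limma adjusted p = 0.00251), or 0.56 when scaled to the hybridization controls. With any array left out the Las1l difference was 0.99 to 1.04. In the fit without the variance trend its adjusted p was 0.0535. Bysl, a small-subunit assembly factor next to Ccnd3, fell to 21.3 and 24.1 with dexamethasone, against 47.3 and 65.8 in medium (-1.26 ± 0.21). This probe set is of a type that can also match related transcripts. A second Bysl probe set was at background, with 0.400 and 0.500 with dexamethasone and 0.900 and 0.500 in medium. The Bysl call was lost without a filter (limma adjusted p = 0.0728) and without the variance trend (0.110). Las1l and Bysl were the 2 changes among 68 tested assembly factors, or 2.94%, beside 3.91% of all genes. The median difference of the 68 was 0.04.

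Within the polymerase machinery 1 of 14 tested genes changed, or 7.14%, beside 3.91% of all genes tested. Taf1c, a subunit of the selectivity factor that places polymerase I on its promoter, had 318 and 359.8 with dexamethasone and 232 and 216 in medium, and rose by 0.59 ± 0.09, which was 0.14 with scaling to the hybridization controls. Pdcd4, which inhibits the helicase Eif4a, rose as the 1 change among 38 translation genes (2.63%). It had 858 and 723 with dexamethasone, against 452 and 532 in medium (0.68 ± 0.11, and 0.23 with scaling to the hybridization controls). Adsl, the adenylosuccinate lyase of purine synthesis, had 273 and 258 with dexamethasone and 179.9 and 196 in medium. Adsl rose by 0.50 ± 0.08, 1 of 24 genes of polyamine and nucleotide synthesis (4.17%), and was at 0.04 with scaling to the hybridization controls. Its call was lost after centring on array medians (limma adjusted p = 0.0555), without a filter (0.0556) and without the variance trend (0.148). Without the variance trend Pdcd4 (0.163) and Taf1c (0.139) did not pass either, and Pdcd4 did not pass without a filter (0.0680).

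The wider list held 8 tested partners and regulators of Myc and of the related Mlx branch, beside 3 tested network members. At the deposited scaling the members were Max (0.02, groups overlapping), Mxd4 (0.28, both dexamethasone arrays higher) and Mxi1 (-0.24, both lower). Scaled to the hybridization controls they were -0.43 for Max, -0.18 for Mxd4 and -0.69 for Mxi1. The 8 genes of the wider list were lower with dexamethasone at the deposited scaling, with a median difference of -0.28. All 8 had non-overlapping groups, beside the 25.7% of all genes that were lower in this way. After quantile normalization all 8 were still lower and 7 of them did not overlap, beside 25.5% of all genes. After centring on array medians all 8 were lower without overlap, beside 33.6% of all genes. The same held with scaling to the hybridization controls, where 78.1% of all genes were lower in this way. Centring and this scaling both lower the dexamethasone arrays beside the medium arrays, so neither could turn the direction of the 8. Of the 8, 2 fell, or 25%, beside 2.02% of all genes tested. Mxd3, a further Max-binding repressor, had 346 and 332 with dexamethasone, against 518 and 465 in medium (-0.53 ± 0.08, limma adjusted p = 0.0229). Bin1, an adaptor that binds Myc, had 209 and 228 with dexamethasone and 289 and 307 in medium (-0.45 ± 0.08, limma adjusted p = 0.0432). With any array left out the differences were -0.61 to -0.45 for Mxd3 and -0.51 to -0.38 for Bin1. The Bin1 call was lost without a filter (limma adjusted p = 0.0727) and without the variance trend (0.167). It was also lost in the mean of probe sets (0.0649) and with probe sets tested in place of genes (0.0513). The Mxd3 call was lost without the variance trend (0.139). The smallest differences were those of Ruvbl2 (-0.08 ± 0.07), Zbtb17 (-0.09 ± 0.08) and Ruvbl1 (-0.10 ± 0.09).

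**Figure D4:**
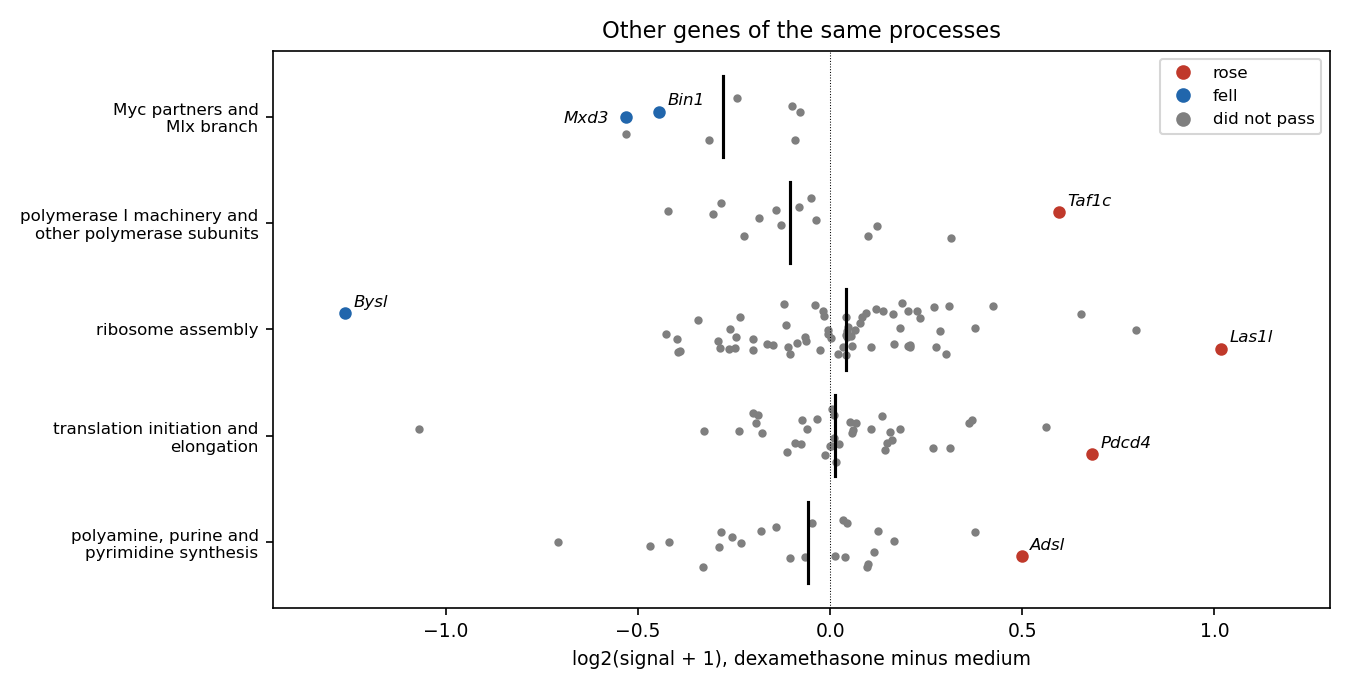
Difference between dexamethasone and medium on the log2(signal + 1) scale for the 152 tested genes of the wider list, by process, with the median of each process as a black line. The 4 rises (Las1l, Pdcd4, Taf1c, Adsl; 0.04 to 0.56 with scaling to the hybridization controls) and 3 falls (Bysl, Mxd3, Bin1) are named.

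With any array left out, 0 of the 4 calls among the members remained in limma, while calls over all genes numbered 33 to 66, against 218 with all arrays. In these fits 1 group has a lone array, which is assumed to vary like the other group. A call lost or kept there therefore says nothing about stability. The differences stayed close, at -0.71 to -0.68 for Nhp2, 0.35 to 0.39 for Ncl, 0.36 to 0.42 for Tcof1 and 0.38 to 0.51 for Rsl1d1. The 15 alternative settings include the 4 with an array left out. Nhp2 passed in 10 of the 15, Ncl in 8, Tcof1 in 7 and Rsl1d1 in 5. A changed filter, variance trend or block leaves the difference as it was, so the direction could not turn there. After quantile normalization the differences were -0.66 for Nhp2, 0.30 for Ncl, 0.42 for Tcof1 and 0.48 for Rsl1d1. The 3 rises turned negative with scaling to the hybridization controls.

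**Figure D5:**
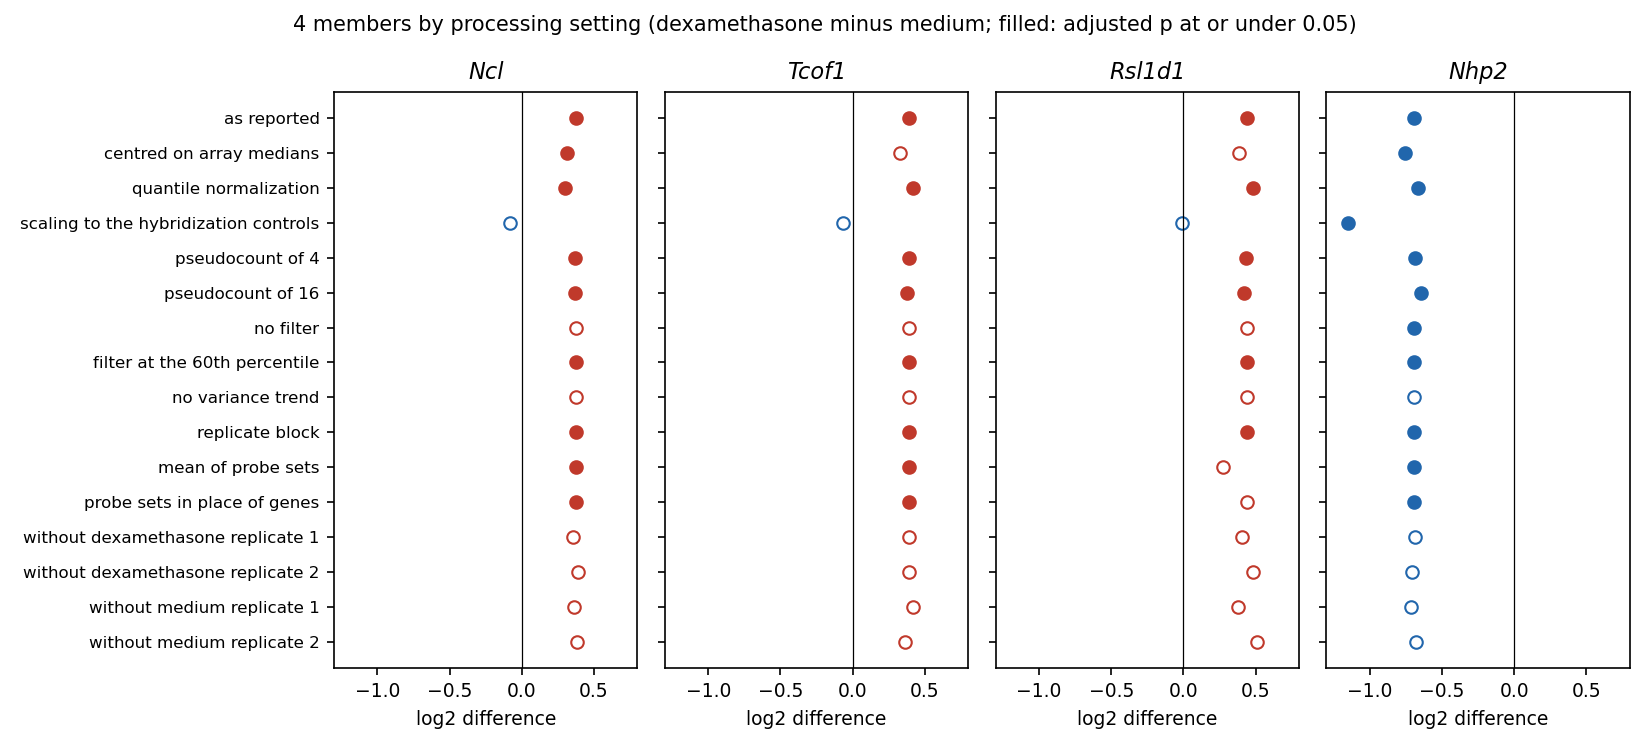
Difference between dexamethasone and medium (log2 scale) for the 4 changed members under each processing setting, filled where the limma adjusted p was at or under 0.05. Nhp2 stays between -1.15 and -0.65, and the other 3 stay above 0 except with scaling to the hybridization controls.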

How the data were processed

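RNA was measured on 4 Affymetrix arrays. The deposited values are probe-set intensities, not log-transformed, which the authors summarised with MAS5, per the submitters' processing notes; version, settings and detection calls are not given in the sources used here. Columns of other samples numbered 0. Of 12422 non-control probe sets, 10833 carried 1 gene symbol, 396 several and 1193 none, and 10817 of the first matched the reference gene table. Each gene was represented by its brightest probe set. Signals were used as log2(signal + 1), which understates the change of dim genes, and genes at or under the 40th percentile of mean signal were left out. Dexamethasone was compared with medium with lmFit and eBayes with a variance trend in limma 3.58.1 under R 4.3.3. Tests were two-sided, and p-values were adjusted by Benjamini-Hochberg over all 5582 genes. Simulated data served to test the fit. The number of arrays limits the precision.

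The members and gene lists were chosen with earlier results of these data known. Named are every member with a probe set of its own and, of each wider list, the 2 largest passing rises and falls. Other named genes were chosen after their values were seen. In bulk RNA, fewer cells of a type and less RNA per cell cannot be told apart. Promoter sequences are from RefSeq, GRCm38.p6. No protein sequences were used here.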

Additional observations from a re-analysis of the deposited data

How the results depend on the processing

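Counts and medians were recomputed under 15 alternatives, 4 of which left out an array. Of 44 single genes, 13 lacked a value in 1 or 2 of them: 11 under the 60th percentile filter, 3 (Bysl, Cad and Ighm) in the mean of probe sets, and Nolc1 without dexamethasone replicate 1. The median difference of the members was -0.42 with scaling to the hybridization controls, beside -0.45 for all genes, and moved by less than the spread between arrays under the other 14. With this scaling 2541 genes changed (43 higher, 2498 lower), 0 members rose and 9 fell, and 1 gene of the wider list rose and 80 fell. Ncl, Tcof1 and Rsl1d1 turned to -0.082, -0.064 and -0.012. Centring on array medians gave 92 rises and 162 falls over all genes and 1 member risen. Without a filter 116 genes changed, with 0 members risen (5 at an unadjusted p under 0.05 in limma) and 2 rises and 1 fall in the wider list. At the 60th percentile 5 members rose. Without the variance trend 19 genes changed, with 0 rises and 0 falls among the members (5 and 2 unadjusted) and 0 and 0 in the wider list (11 and 13 unadjusted). The mean of probe sets gave 1 fall in the wider list. With the replicate number as a block 353 genes changed, 5 members rose and 8 genes of the wider list rose; same-numbered arrays shared only a number (correlation of deviations 0.072). Leaving out each array, where the lone array of a group is assumed to vary like the other group, gave 33 to 66 changed genes, 0 members risen and 0 fallen (5 to 6 and 1 to 4 unadjusted), and 1 rise and 0 falls in the wider list (9 to 13 and 8 to 22 unadjusted). Mxd4 and Npm1 passed with the 60th percentile filter and with the block. Signal near background limits Myc, Mycn, Eif4e, Eif5a, Nolc1 and Srm.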

Other observations

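Several genes of the wider list came close to the threshold; they were chosen after their values were seen and did not pass. Sat1, which marks polyamines for breakdown and export, had 0.38 ± 0.08 (limma adjusted p = 0.0641), and Azin1, which protects ornithine decarboxylase from degradation, -0.28 ± 0.07 (limma adjusted p = 0.0958). Fbxw7, part of a ubiquitin ligase that targets Myc for degradation, had 50.8 and 48.5 with dexamethasone and 67.3 and 77.5 in medium, a difference of -0.53 ± 0.13 (limma adjusted p = 0.0903). Among translation genes, Tpt1 had 0.37 ± 0.09 and Eif3m 0.36 ± 0.09. The positive differences of Sat1, Tpt1 and Eif3m are smaller than the shift of 0.45 that scaling to the hybridization controls makes.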
